A study of Rattus norvegicus with 24 samples.

Results

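The genes described here are 10 transcripts of the complement system and of the microglial surface: C1qa, C1qb, C2, C3, Tyrobp, Csf1r, Cx3cr1, Aif1, Itgam and Clec4a3. They were chosen by symbol, with earlier results of these data known, and every probe annotated to them was taken. C1qa, C1qb, C2, Tyrobp, Cx3cr1, Aif1, Itgam and Clec4a3 had 1 probe each, and all 8 probes passed the filter on dim signals; C3 and Csf1r were not analysed here, as no probe in the annotation used carried their symbol. The array names 13337 genes, of which 7360 were tested. Levels were measured in whole dorsal striatum, the dorsal part of the main input nucleus of the basal ganglia, from male Sprague-Dawley rats. RatRef-12 BeadChips were used, glass slides with 12 Illumina arrays each, at 1 array per sample.

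Rats of the treated groups had taken methamphetamine (METH, a psychostimulant that releases dopamine) by intravenous self-administration with each injection delivering 0.1 mg/kg, during sessions lasting 15 h over 8 days. METH 2 h is a group of 6 rats killed 2 h after the last session, and METH 24 h is a group of 6 killed 24 h after it. Each was compared with 6 yoked saline rats hybridised on the same slides. Slide 1 holds the METH 2 h arrays with their saline arrays. Slides 2 and 3 each hold 3 METH 24 h arrays and 3 saline arrays. No time of death is labelled for the saline rats, which are therefore identified by slide. Slide set and time cannot be told apart, and METH arrays of different slide sets were not compared directly. The question at each time was which transcripts METH rats held above or below their yoked controls, and a further test asked if that contrast changed from 2 h to 24 h.

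Microglia are the resident macrophages of the brain. They make C1q, the recognition molecule of the classical complement pathway, whose 3 chains are encoded by C1qa, C1qb and C1qc. Bound C1q activates proteases that cleave C4 and C2, the cleaved products form the enzyme that splits C3, and fragments of C3 tag synapses and debris for uptake through the receptor CD11b, encoded by Itgam. Tyrobp encodes DAP12, an adaptor that carries the signal of surface receptors without a signalling tail of their own, such as TREM2. Csf1r encodes the receptor on which microglial survival depends, and Cx3cr1 encodes the receptor for the neuronal chemokine fractalkine. Aif1 encodes IBA1, the calcium-binding protein used to stain microglia, and Clec4a3 encodes a C-type lectin receptor of myeloid cells.

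RefSeq promoters on the rat assembly GRCr8, 300 bases around the annotated transcription start, were matched by symbol for 5 of the 8 measured genes. The sequences of 4 are shown to set the promoters of C1qa and C1qb, the C1q chain genes among the 8, beside those of Clec4a3, whose METH 24 h arrays all lay above saline, and of Cx3cr1, whose arrays did not. C1qa (chr5:154419884-154420183, minus strand) and C1qb (chr5:154407778-154408077, minus strand) flank C1qc in the annotation. Cx3cr1 lies at chr8:128677017-128677316 on the minus strand and Clec4a3 at chr4:157886508-157886807 on the plus strand. Each is written 5′ to 3′ on the strand of its gene. Capitals mark GAGGAA or GGAAGT on either strand, letters held by sites of PU.1 and related ETS factors of myeloid cells.
C1qa: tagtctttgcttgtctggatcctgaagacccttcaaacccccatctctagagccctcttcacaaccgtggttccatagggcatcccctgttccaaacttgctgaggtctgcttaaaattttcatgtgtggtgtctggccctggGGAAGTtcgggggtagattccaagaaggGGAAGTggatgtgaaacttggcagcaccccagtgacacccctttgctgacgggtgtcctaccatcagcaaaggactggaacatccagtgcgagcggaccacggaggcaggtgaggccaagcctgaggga
C1qb: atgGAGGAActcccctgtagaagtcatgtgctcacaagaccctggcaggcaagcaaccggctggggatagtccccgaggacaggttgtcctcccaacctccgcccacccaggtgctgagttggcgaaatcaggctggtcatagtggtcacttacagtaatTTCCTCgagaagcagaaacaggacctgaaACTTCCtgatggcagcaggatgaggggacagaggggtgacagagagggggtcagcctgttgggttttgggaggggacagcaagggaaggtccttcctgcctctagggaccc
Clec4a3: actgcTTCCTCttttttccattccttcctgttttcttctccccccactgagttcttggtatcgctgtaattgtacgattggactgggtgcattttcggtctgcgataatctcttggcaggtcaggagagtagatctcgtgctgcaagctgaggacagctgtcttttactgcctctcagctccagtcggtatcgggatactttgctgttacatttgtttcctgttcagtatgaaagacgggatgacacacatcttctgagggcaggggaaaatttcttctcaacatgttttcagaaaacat
Cx3cr1: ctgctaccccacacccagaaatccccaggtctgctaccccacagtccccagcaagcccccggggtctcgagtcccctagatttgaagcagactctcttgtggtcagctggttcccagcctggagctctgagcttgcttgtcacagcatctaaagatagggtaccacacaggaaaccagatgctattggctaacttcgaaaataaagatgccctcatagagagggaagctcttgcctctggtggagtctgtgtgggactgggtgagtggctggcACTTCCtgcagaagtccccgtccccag

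GAGGAA, read on both strands, was found in 3 of the 5 promoters (C1qb, Itgam and Clec4a3) and in 27.6% of 33469 rat promoters of this length. GGAAGT was found in 3 of the 5 (C1qa, C1qb and Cx3cr1) and in 22.6% of all. The core of the interferon-stimulated response element, searched as GAAA and again GAAA after any 2 bases, was found in 0 of the 5 and in 3.92% of all. The GGAAGT matches of C1qa begin at -107 and -79 from the start site. In C1qb the matches of both motifs on the opposite strand lie closer to the start than its first GAGGAA, at -90 and -61 bases against -247. These are matches of letters, not sites of binding.

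At 24 h the METH group mean lay above the saline mean for 7 of the 8 measured genes, by 0.24 to 0.88 on the log2 scale, and below it for Cx3cr1. None of the 8 passed the threshold of 0.05 on p-values from limma adjusted by the Benjamini-Hochberg method over all 10354 tested probes, where the adjusted p was 1 for each. At that threshold 0.0483% of all tested probes were called, 5 in number. At an unadjusted p under 0.05, 6 of the 8 were higher in METH rats, against 1.09% of all tested probes in that direction and 1.94% in either. A positive difference of any size was found for 7 of 8 against 49.4% of all probes, and one of over 0.3 for 6 of 8 against 1.23%. The median difference of the 8 genes was 0.39, beside -0.0020 over all tested probes. The genes were chosen with earlier results of these data known. These shares and medians therefore describe the list and do not test it. For each gene a two-sided exact permutation test was also run, with METH and saline labels exchanged within each slide. At 24 h it has 400 assignments and can give no p below 0.005. Its p-values are not adjusted for the 16 such tests run or for the choice of genes. In whole tissue, more microglia and more transcript per microglial cell cannot be told apart.

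The complement genes C2 and C1qb had the largest differences of the 8 at 24 h. All values are normalized log2 signals, which do not compare one probe with another. For C2, the saline arrays ran from 7.26 to 7.78 with a median of 7.47. Its METH 24 h arrays ran from 7.86 to 9.51 with a median of 8.11. Every METH array therefore lay above every saline array, and the group means were 8.36 ± 0.62 and 7.47 ± 0.18 (SD, n = 6 each). The difference was 0.88 (SE 0.25, 95% interval 0.36 to 1.40), or 1.85-fold, with an exact permutation p of 0.005, the smallest it can give, and the 13th lowest p of the 10354 probes in limma. The spread of C2 was wider in METH rats, since the array of METH 24 h replicate 2 reached 9.51 and the next highest, replicate 5, reached 8.59.

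C1qb ran from 8.14 to 8.78 on saline arrays (median 8.54) and from 8.68 to 9.80 on METH 24 h arrays (median 8.92). The groups overlapped, and 4 METH arrays were higher than the whole saline group. Means were 9.06 ± 0.42 in METH and 8.51 ± 0.26 in saline rats (SD, n = 6 each), a difference of 0.55 (SE 0.18, 95% interval 0.17 to 0.92) or 1.46-fold, with an exact permutation p of 0.025. C1qa, which encodes the A chain of the same molecule, ran from 7.56 to 8.37 on saline arrays (median 8.12) and from 7.97 to 9.35 on METH arrays (median 8.41). Here 3 METH arrays exceeded the whole saline group and the other 3 lay within the saline range. The difference of C1qa was 0.51 (SE 0.21, 95% interval 0.084 to 0.94), or 1.42-fold, with an exact permutation p of 0.075 and group means of 8.54 ± 0.52 and 8.02 ± 0.32.

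Among the receptors and adaptors, Clec4a3 had the lowest p of the 8 genes in limma. Its signal was dim: 4 of the 6 saline arrays and all 6 METH 24 h arrays detected it. Saline arrays ran from 5.10 to 5.30 (median 5.20) and METH 24 h arrays from 5.32 to 5.85 (median 5.57), so the groups did not overlap. The difference was 0.40 (SE 0.11, 95% interval 0.17 to 0.62), or 1.32-fold, with an exact permutation p of 0.005 and the 11th lowest p of all tested probes in limma. With the deposited log2 values in place of the normalized ones it was 0.73 (SE 0.53), its interval then included 0, and C2 had the lowest p of the 8; with a normexp offset of 50, which shrinks dim signals more, it was 0.22. Saline arrays were close to each other, with a mean of 5.19 ± 0.075 against 5.59 ± 0.19 in METH rats (SD, n = 6 each). Clec4a3 lies between its relatives Clec4a1 and Clec4a2 in the annotation, and whether the probe separates them was not tested. Over all tested probes, 0.0773% had every METH 24 h array above every saline array, 8 in number, and C2 and Clec4a3 are 2 of these.

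Tyrobp ran from 5.41 to 5.84 on saline arrays (median 5.53) and from 5.74 to 6.40 on METH 24 h arrays (median 5.85). Of the 6 saline arrays, 5 lay below every METH array, and saline replicate 5, on slide 3, lay at 5.84 among the METH values. The difference of Tyrobp was 0.38 (SE 0.12, 95% interval 0.13 to 0.62), or 1.30-fold, with an exact permutation p of 0.015; it was 0.52 (SE 0.44) from the deposited values, with an interval that included 0, and 0.23 with an offset of 50. Aif1 ran from 8.69 to 9.43 in saline rats (median 9.07) and from 8.92 to 9.91 in METH 24 h rats (median 9.35). The ranges overlapped over most of their length, and 2 METH arrays exceeded the whole saline group. Its difference was 0.35 (SE 0.17, 95% interval 0.0083 to 0.70), or 1.28-fold, with an exact permutation p of 0.055.

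In the model over all 24 arrays, Itgam and Cx3cr1 had intervals that included 0 at 24 h. Itgam, the CD11b chain of complement receptor 3, ran from 5.27 to 5.83 on saline arrays (median 5.39) and from 5.48 to 5.94 on METH arrays (median 5.69). The difference was 0.24 with a 95% interval from -0.031 to 0.50 and an exact permutation p of 0.060. It was 0.39 from the deposited values and 0.14 with an offset of 50. With slides 2 and 3 fitted apart from slide 1, its SE was 0.10 and its interval lay above 0. The unadjusted limma p of Itgam was then 0.040 and the adjusted p 0.998. The fractalkine receptor gene Cx3cr1 ran from 5.13 to 5.59 on saline arrays (median 5.34) and from 5.08 to 5.38 on METH arrays (median 5.27). No METH array lay above every saline array, and 2 lay below all of them. Its difference was -0.094 (SE 0.11, 95% interval -0.31 to 0.12) with an exact permutation p of 0.31. That interval ends below the estimates of the other 7 genes. From the deposited values the difference of Cx3cr1 was -0.18 (SE 0.32). Its interval then took in the estimates of Itgam, 0.39, and Aif1, 0.33. Differences between genes were not tested. All 6 saline arrays and 4 of the 6 METH 24 h arrays detected Cx3cr1.

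**Figure D1:**
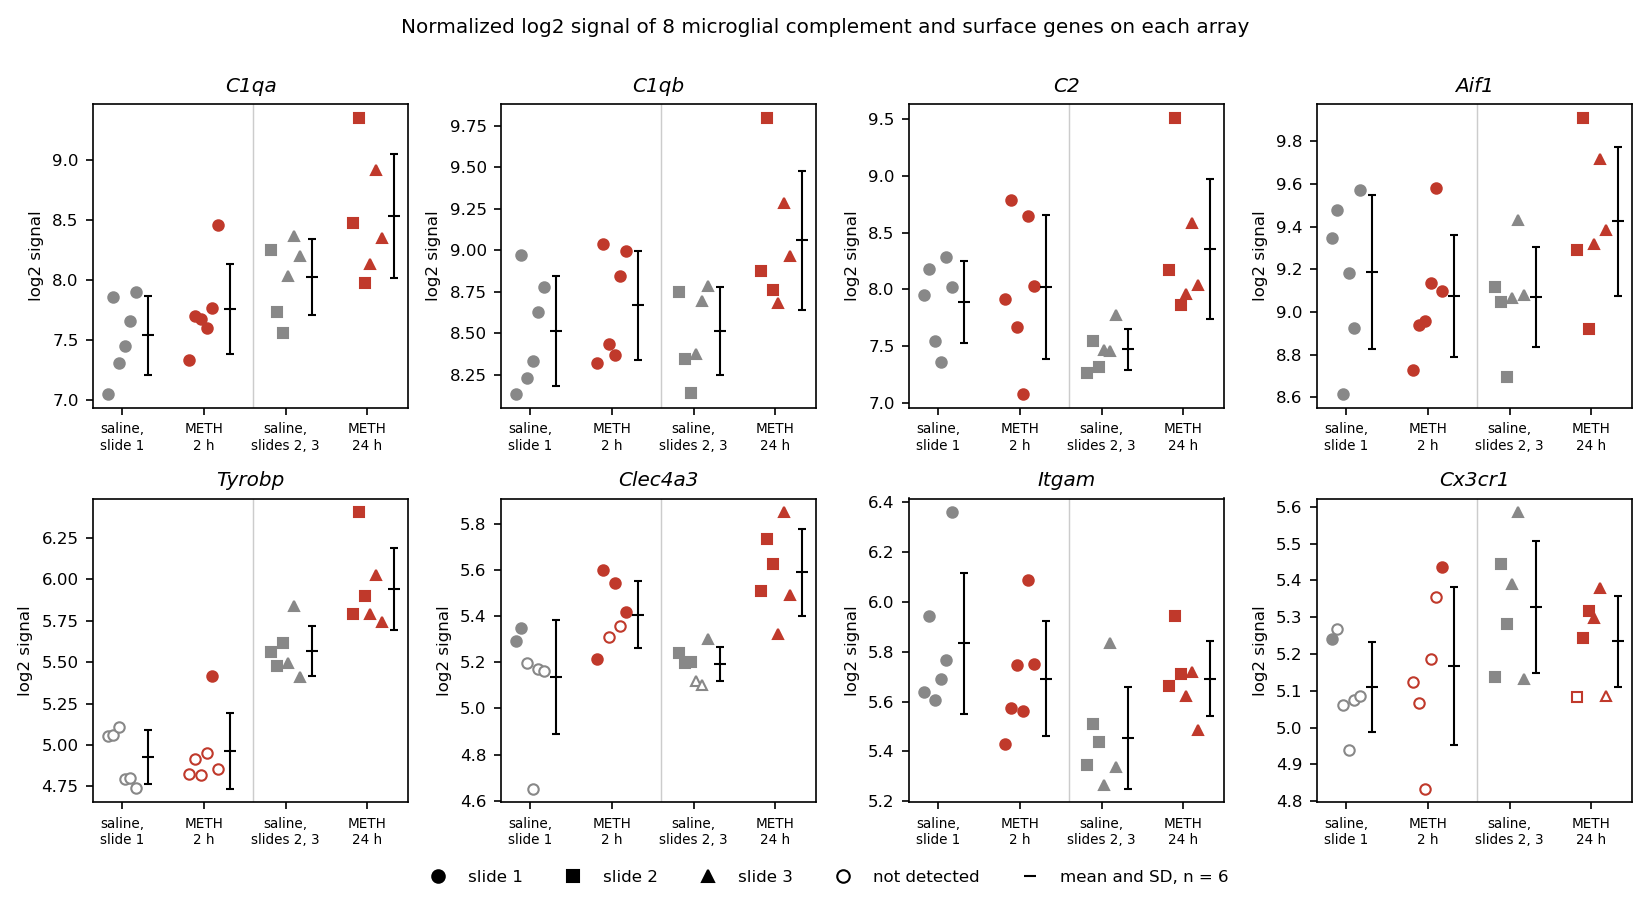
Each panel plots the normalized log2 signal of a gene on every array, with marker shape for the slide, open markers where the probe was not detected, and bars for the group mean and SD (n = 6). C2 and Clec4a3 are the genes whose METH 24 h arrays all lie above the saline arrays of slides 2 and 3; Tyrobp lies at 4.74 to 5.41 on slide 1, mostly undetected, and at 5.41 to 6.40 on slides 2 and 3.

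Slides 2 and 3 each hold both groups, so the 24 h effect was also estimated within each, from 3 METH and 3 saline arrays. The estimate was positive on both slides for the same 7 genes, against 24.7% of all tested probes, and negative on both for Cx3cr1. On slide 2 the effects were 1.14 for C2, 0.75 for C1qa, 0.73 for C1qb, 0.48 for Tyrobp, 0.42 for Aif1, 0.41 for Clec4a3, 0.34 for Itgam and -0.073 for Cx3cr1. On slide 3 they were 0.63 for C2, 0.38 for Clec4a3, 0.36 for C1qb, 0.28 for Aif1, 0.27 for C1qa, 0.27 for Tyrobp, 0.13 for Itgam and -0.12 for Cx3cr1. Their standard errors ran from 0.15 for Cx3cr1 to 0.36 for C2. The median of the 8 genes was 0.45 on slide 2 and 0.28 on slide 3.

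All 8 estimates were lower on slide 3 than on slide 2, with a median difference of -0.21 beside -5.1e-05 over all tested probes. The genes varied together across arrays, so these are not 8 separate observations. In the test of the difference between slides none of the 8 genes passed, with an adjusted p of 1 from limma for each. The widest intervals of that difference were those of C2, from -1.55 to 0.53, and C1qa, from -1.33 to 0.36. Clec4a3 kept nearly the same value on both slides, with a difference of -0.030 (95% interval -0.49 to 0.43). Within slide 2, Benjamini-Hochberg adjustment called 0% of probes; within slide 3 and for the difference between slides it also called 0%. Every METH array of slide 2 lay above every saline array of that slide for 5 of the 8 genes (C1qb, C2, Tyrobp, Itgam and Clec4a3), against 4.48% of all probes. On slide 3 this held for C2 and Clec4a3, against 3.58% of all probes.

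**Figure D2:**
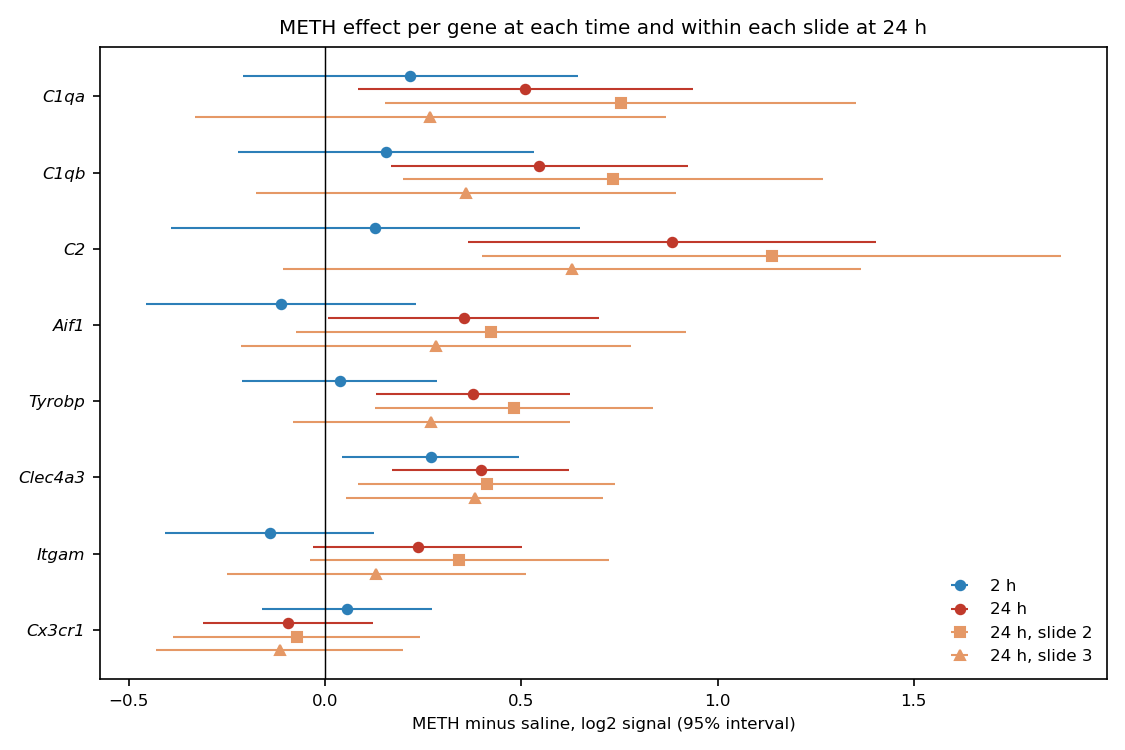
The log2 difference between METH and saline means is plotted per gene with its 95% interval, at 2 h, at 24 h, and at 24 h within slide 2 and slide 3; the 2 h points of Tyrobp and Cx3cr1 come from mostly undetected signals. At 24 h the intervals of C1qa, C1qb, C2, Aif1, Tyrobp and Clec4a3 lie above 0; within slide 3 the interval of Clec4a3 does so and those of the other 7 genes cross 0.

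A pair of METH 24 h arrays stood highest. Replicate 2, on slide 2, was the highest of the 12 arrays of slides 2 and 3 for 6 of the 8 genes, against 13.4% of all tested probes. Its array weight in limma, which falls as an array fits worse over all probes, was 0.678. The other arrays of slides 2 and 3 had weights of 0.945 to 2.25. Replicate 5, on slide 3, was the highest for Clec4a3 and had a median rank of 2 over the 8 genes. Measured from the saline mean of its own slide, replicate 2 lay higher by 2.13 for C2, 1.51 for C1qa, 1.39 for C1qb, 0.96 for Aif1, 0.85 for Tyrobp, 0.52 for Clec4a3 and 0.51 for Itgam, and at -0.044 for Cx3cr1. Replicate 5 lay higher by 1.02 for C2, 0.72 for C1qa, 0.68 for Clec4a3, 0.67 for C1qb, 0.53 for Aif1, 0.45 for Tyrobp and 0.24 for Itgam. The 4 other METH arrays lay between -0.069 and 0.80 for C1qa, C1qb and C2, with C2 at 0.39 or more on each.

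Without replicate 2 the 24 h differences of C1qa and Aif1 were 0.32 and 0.23, less than their values over all arrays by more than 1.5 times, and both intervals then included 0. That of C1qa also included 0 without METH 24 h replicate 5 or saline replicate 3 of these slides, and that of Aif1 without any single one of 7 of the 12 arrays. Without replicate 2, an unadjusted p under 0.05 was found for 4 of the 8 genes: C2 at 0.63 (SE 0.22), C1qb at 0.38 (SE 0.17), Clec4a3 at 0.37 (SE 0.12) and Tyrobp at 0.28 (SE 0.11), against 0.966% of all probes. Without replicates 2 and 5 together, a choice made after seeing the data, 2 of the 8 remained at that level, C2 at 0.54 (SE 0.23) and Clec4a3 at 0.30 (SE 0.12), against 0.599% of all probes. The median difference was then 0.22.

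**Figure D3:**
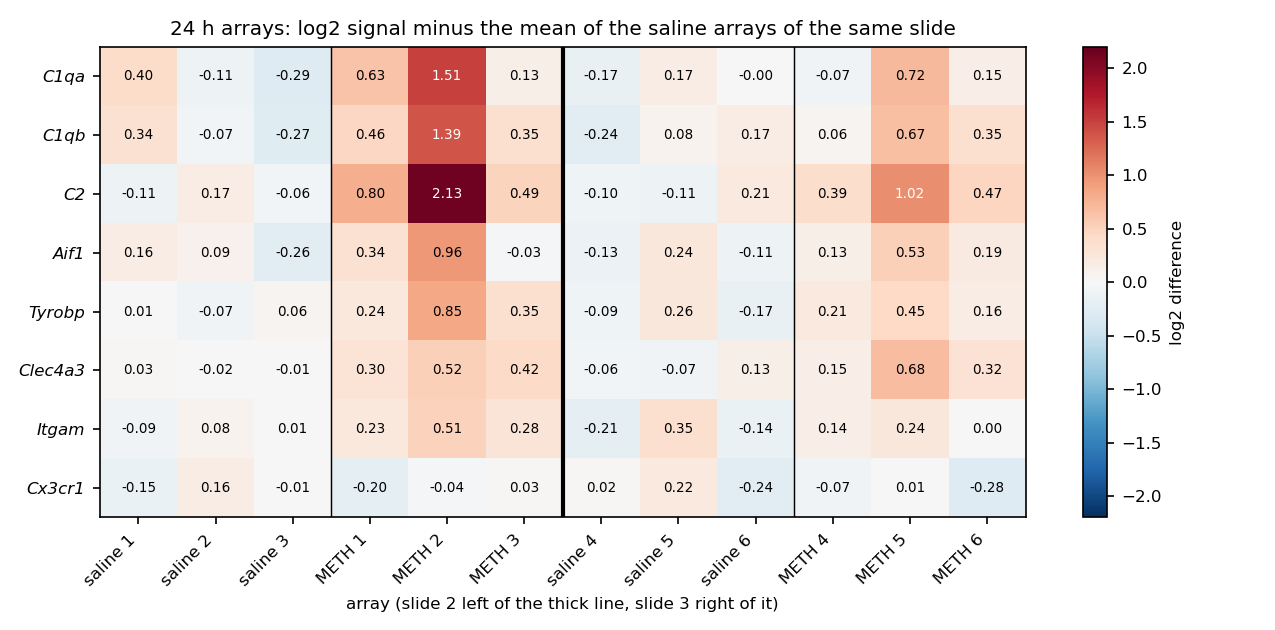
Each cell gives the log2 signal of a gene on an array of slide 2 or slide 3 minus the mean of the saline arrays of the same slide. METH replicate 2 holds the highest value of the plot, 2.13 for C2, METH replicate 5 is the highest array of slide 3 for 6 of the 8 genes, and the Cx3cr1 row stays between -0.28 and 0.22.

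At 2 h none of the 8 genes passed after adjustment, with adjusted p from limma between 0.417 and 0.951, where 0.0676% of all tested probes were called, 7 in number. Clec4a3 was the 1 gene with an unadjusted p under 0.05, against 9.22% of all probes in either direction and 4.94% higher. It ran from 4.65 to 5.35 on saline arrays (median 5.18) and from 5.21 to 5.60 on METH 2 h arrays (median 5.39). The difference of Clec4a3 was 0.27 (95% interval 0.043 to 0.50), with an exact permutation p of 0.0173 over 924 assignments and an adjusted p of 0.417 from limma. It was detected on 2 saline and 4 METH arrays of this slide. Without saline replicate 4 of slide 1, its lowest array, the difference was 0.17 and its interval included 0, as it also did without METH 2 h replicate 2, at 0.23. From the deposited values it was 1.06, again with an interval that included 0, and with an offset of 50 it was 0.14. With slide 1 fitted apart from the other slides, the limma p of Clec4a3 was 0.0523 and its interval included 0. Groups overlapped for all 8 genes at 2 h, while 0.251% of all probes had every METH 2 h array above every saline array.

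With the main normalization the other genes lay closer to saline at 2 h. C1qa ran from 7.05 to 7.90 on saline and from 7.34 to 8.46 on METH arrays, a difference of 0.22 (95% interval -0.21 to 0.64). C1qb ran from 8.13 to 8.97 and from 8.32 to 9.04, a difference of 0.15 (-0.22 to 0.53). C2 ran from 7.37 to 8.29 on saline and more widely, from 7.08 to 8.79, on METH arrays, a difference of 0.13 (-0.39 to 0.65). Aif1 differed by -0.11 and Itgam by -0.14. With single arrays left out, the difference of C1qa ran from 0.077 (without METH 2 h replicate 6) to 0.30. That of C1qb ran from 0.079 (without saline replicate 1) to 0.25, that of Aif1 from -0.23 to -0.036 and that of Itgam from -0.22 to -0.036. From the deposited values C1qa was 0.47 and C1qb 0.39, where the median of all probes was 0.20. With median scaling C1qa was 0.44 (limma p 0.038, adjusted p 0.435) and C1qb 0.38, where that median was 0.15. Tyrobp was undetected on all 6 saline arrays of slide 1 and on 5 of 6 METH 2 h arrays, so no fold is given for it. Its measured means were 4.93 ± 0.16 and 4.96 ± 0.23 (SD, n = 6 each). Cx3cr1 was detected on 1 saline and 1 METH array of slide 1, with measured means of 5.11 ± 0.12 and 5.17 ± 0.22. The 2 h differences of Tyrobp and Cx3cr1 are therefore not read as a direction. C2 turned negative, at -0.026, without METH 2 h replicate 2, and Aif1 turned positive under other scalings, where it still lay below the median of all probes.

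A positive difference was found at 2 h for 4 of the 6 genes detected on at least 2 arrays of each group, with 48.9% of all probes positive, and for 0 by over 0.3 on the log2 scale, against 4.84%. The median of the 8 genes, Tyrobp and Cx3cr1 included, was 0.092 at 2 h and 0.39 at 24 h. The difference between the 24 h and the 2 h effect was positive for 7 of 8 genes, with a median of 0.36 beside 0.0017 over all tested probes. This count includes Tyrobp and Cx3cr1, which were mostly undetected at 2 h. None of the 8 passed, with adjusted p of 0.989 or more from limma. That test called 0% of all probes and had 4.86% at an unadjusted p under 0.05. In the positive direction, 2.12% of all probes reached that level, and so did C2 and Itgam. The difference was 0.76 for C2 (95% interval 0.019 to 1.49). For Itgam it was 0.38 (0.00035 to 0.75), with a negative estimate at 2 h and a positive one at 24 h.

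Other genes of complement and of microglia were read beside the 8. Of the remaining complement genes 15 were tested, 0 passed after adjustment at either time with limma, and 2 were higher at 24 h at an unadjusted p under 0.05. These were Cd59b, an inhibitor of the membrane attack complex, at 0.36 (SE 0.11), and C4b, the substrate of the C1 protease, at 0.52 (SE 0.21). The remaining C1q chain gene, C1qc, differed by 0.43 at 24 h and by 0.49 at 2 h (SE 0.22 at each). Masp2, a protease of the lectin pathway, differed by -0.39 at 2 h (SE 0.15). The median of the 15 genes at 24 h was 0.084, with 11 of them higher. Without METH 24 h replicate 2 it was 0.053, with 8 higher and 1 at an unadjusted p under 0.05, and over all 12 single arrays left out it ran up to 0.14 (without METH 24 h replicate 6).

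Among 11 tested ligands and signalling partners of the 8 gene products, 0 passed and 7 were higher at 24 h, with a median of 0.057. Of the 12 single arrays, 7 moved that median by more than 1.5 times when left out, over a range from 0.015 (without METH 24 h replicate 4) to 0.096 (without replicate 6), and it was 0.016 without replicate 2, 0.018 without replicate 5 and -0.017 without both. The signalling chain gene Fcer1g, which encodes an adaptor like DAP12, differed by 0.44 at 24 h (SE 0.17). The fractalkine gene Cx3cl1 differed by -0.17 (SE 0.12), and Cd200, the neuronal ligand of a receptor that restrains microglia, by 0.18 (SE 0.16). The lowest p-values of this list at 2 h belonged to the ligands of the receptor encoded by Csf1r: Il34 differed by -0.51 (SE 0.16, adjusted p 0.235) and Csf1 by 0.39 (SE 0.13, adjusted p 0.270), with Csf1 detected on 2 saline and 6 METH arrays of slide 1. Of 11 C-type lectin genes with a probe, only Clec10a was bright enough to test, and it differed by -0.026 at 24 h, or 0.036 without saline replicate 5 of slide 3, and by -0.029 at 2 h.

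Of 34 other microglial genes tested, 0 passed at either time, 32 were higher at 24 h with 25 of them higher on both slides, and the median was 0.16. The lowest unadjusted p-values at 24 h belonged to Ly86, a partner of a Toll-like receptor relative, at 0.31 (SE 0.11), the Fc receptor gene Fcgr3a at 0.43 (SE 0.16) and the transcription factor gene Irf5 at 0.24 (SE 0.097). At 2 h they belonged to Bin2 at -0.33 (SE 0.12) and Ptpn6, a phosphatase of inhibitory receptors, at 0.25 (SE 0.10), the latter detected on 1 saline and 4 METH arrays of slide 1. Without METH 24 h replicate 2, 26 of the 34 were higher and the median was 0.11. The homeostatic markers Tmem119, P2ry12 and P2ry13 and the receptor gene Trem2, named here after their values were seen, differed by 0.16, 0.14, -0.011 and 0.034 at 24 h, each with an adjusted p of 1.

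Genes linked to activated microglia gave 0 calls among 15 tested, 14 higher at 24 h and a median of 0.10, which was 0.064 without saline replicate 3 of slide 2. The chemokine gene Ccl5 differed most, by 0.78 (SE 0.22), and was detected on 2 saline and 4 METH arrays of slides 2 and 3. Tgfb1 differed by 0.23 (SE 0.14) and Lgals3, which encodes galectin-3, by 0.20 (SE 0.14). At 2 h the lowest p-values were those of Gpnmb at -0.28 (SE 0.13) and Tgfb1 at 0.20 (SE 0.14). All 7 tested genes of MHC class II, which presents antigen, were higher at 24 h with 0 calls and a median of 0.10. The invariant chain gene Cd74 differed by 0.87 (SE 0.25), RT1-Da by 0.83 (SE 0.28) and RT1-Ba by 0.34 (SE 0.14). RT1-Ba was detected on 1 saline and 4 METH arrays of slides 2 and 3 and Cd74 on 4 and 5, so these differences set dim or undetected saline signals against METH ones, while RT1-Da was detected on all 12. At 2 h RT1-Db1, detected on 3 saline and 1 METH arrays, differed by -0.20, and RT1-Da, detected on 2 and 4, by 0.22. METH 24 h replicate 2 had the highest mean MHC class II signal of the 12 arrays, 6.69, and without it 5 of the 7 genes were higher with a median of 0.058. Over all single arrays left out the median ran from 0.049 (without saline replicate 3) to 0.17 (without METH 24 h replicate 3).

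Markers of cell types were read on the same arrays. The tissue carried its defining neuronal markers, since all 11 markers of striatal projection neurons with a probe were detected, and 8 of 11 microglial markers were detected while Spi1, Irf8 and Ptprc never were. The summed signal of the microglial markers ran from 2103 to 2791 on the saline arrays of slides 2 and 3 and from 2328 to 3329 on METH 24 h arrays. Bright probes weigh most in such a sum. The brightest microglial marker was Ctss, at 10.1 to 10.7 on those saline arrays and 10.3 to 10.8 on METH 24 h arrays (log2). Border and perivascular macrophage markers summed to 260.4 to 290.4 in saline and 257.4 to 290.8 in METH rats, and 5 of their 8 markers (Cd163, Mrc1, Lyve1, Ms4a7 and Folr2) were never detected. Of 14 markers of T, NK and B lymphocytes 10 were never detected and 0 were tested, and their sums were 351.3 to 373.9 and 354.0 to 398.7. The median number of lymphocyte markers detected per array was 0.5 in saline and 0 in METH 24 h rats. Each sum counts undetected probes at their background signal. The sums of border macrophages and lymphocytes therefore cannot show whether those cells changed.

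Markers of monocytes and neutrophils summed to 423.4 to 472.7 in saline and 441.2 to 588.0 in METH 24 h rats. Of their 13 markers with a probe 8 were never detected, among them S100a9, Mpo, Csf3r and Cxcr2. Plac8, detected on 2 saline and 5 METH arrays of slides 2 and 3, differed by 0.85 at 24 h (adjusted p 1) and reached 7.43 on METH replicate 2. The other tested marker, Vcan, was detected on all 24 arrays and differed by 0.25 at 24 h. The sum of this list also counts undetected probes, so it cannot show whether monocytes or neutrophils changed. Summed signals were 13058 to 16920 in saline and 14438 to 18171 in METH 24 h rats for astrocyte markers, 8419 to 13190 and 6679 to 10939 for oligodendrocyte markers, and 886.3 to 1328 and 1079 to 1598 for markers of vessel cells. Red blood cell markers had a summed signal of 7658 to 19895 on saline arrays and 2348 to 6162 on METH 24 h arrays. The haemoglobin genes Hbb, Hbb-b1, Hba-a1 and Hba-a3 fell, with log2 differences of -1.75, -1.80, -1.69 and -1.51 and adjusted p from limma of 0.00155, 0.000926, 0.00584 and 0.00155. Hba-a3 was detected on 6 saline and 2 METH arrays of slides 2 and 3, the other 3 on all 12. From the deposited log2 values the log2 differences of the 4 genes were -3.17 to -1.66, but none of them passed, with adjusted p of 0.116 to 0.275; with those values centred per array the adjusted p was 0.0504 to 0.114. The other tested red blood cell markers, Epb42 and Slc4a1, differed by -0.12 and -0.033 (adjusted p 1 for each). The part of blood cells in the levels of the 8 genes was not tested.

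Across arrays, the 8 genes varied together to different degrees. After group and slide means were taken out, C1qb correlated with the mean of the other 7 genes at r = 0.78 over 24 arrays, Aif1 at 0.74, C1qa at 0.68, C2 at 0.66, Itgam at 0.60 and Tyrobp at 0.57. Clec4a3, at 0.42, and Cx3cr1, at 0.40, followed the others least. These correlations are descriptions over arrays that share slides and a normalization. Outside the 8, the named genes with the most similar residual pattern were Tlr2, a Toll-like receptor (r = 0.81, Spearman's rho 0.76), Upp1 (0.78, rho 0.68), Acadm (0.77, rho 0.79), Lrrk1 (0.76, rho 0.68), C1qc (0.76, rho 0.80), Gmfg (0.76, rho 0.75), Plek (0.76, rho 0.65) and RT1-M10-1 (0.75, rho 0.69). Without the 2 arrays farthest from the median, METH 24 h replicate 2 and METH 2 h replicate 5, r was 0.63 to 0.76. Of these 8 similar genes, Upp1, RT1-M10-1 and Lrrk1 had an unadjusted p under 0.05 at 24 h, with differences of 0.41, 0.45 and 0.23, and Tlr2 differed by 0.091.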

How the data were processed

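For 22523 probes the authors deposited an intensity per array, raw and non-normalized per the file headers, though 26.4% to 31.7% of an array's values lie below 0, and beside each intensity a detection score. Within an array the score's rank correlation with the intensity in its line was -0.0136 to -0.00495, against a median of 0.918 between arrays, so scores stand in another probe order. Each array's sorted scores, read as 1 minus p, were assigned to its sorted intensities, and 1 missing score was set to the array's median. The authors also deposited log2 values, which equal (within 2.17e-06) the log2 intensity, with values under 1 set to 1, after subtraction of the probe's median within slide 1 or within slides 2 and 3; their column medians run from -0.41 to 0.40, and they served as an alternative. The steps behind the intensities are not given in the sources used here.

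In R 4.3.3 with limma 3.58.1, neqc (normexp, offset 16, then quantiles, log2) was run on all 24 arrays. The offset makes folds of dim genes smaller. A probe was tested if at least 6 arrays had it at a detection p under 0.05, which held for 10354. Detected probes numbered 8208 to 9428 per array on slide 1 and 9375 to 10306 on slides 2 and 3; the number of arrays limits the precision. A single linear model (lmFit, eBayes) held a mean per group plus an offset of slide 3 from slide 2, and a second had a mean per group and slide. Both took the same spread per probe for all 24 arrays. Array weights ran from 0.355 to 1.04 on slide 1 and from 0.678 to 2.25 on slides 2 and 3. Intervals of the steadier slide set can therefore be too wide and those of the other too narrow. P-values were adjusted over all tested probes by Benjamini-Hochberg. On simulated data the fit recovered 73% of 1.5-fold and 98% of 2-fold changes at each time. Of its calls there, 8.56% were false at 2 h and 3.39% at 24 h. These shares hold for the simulated data only. In the measured data C2, at 1.85-fold at 24 h, did not pass. The lack of a call therefore does not show that a change of such a size is absent. Exact permutation tests of single genes exchanged labels within slides (924 assignments at 2 h, 400 at 24 h) and were added after the data were seen. Arrays were taken as independent animals, since separate groups of rats are labelled, and 0 pairs of arrays held identical values. Symbols came from the platform annotation, updated through a RefSeq table of GRCr8 (13752 probes matched; 13793 probes have 1 symbol, 0 several and 8730 none), and can be old.

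The genes and the lists beside them were chosen with earlier results of these data known. In each list the genes named are the 3 of lowest p at 24 h and the 2 of lowest p at 2 h, with 4 microglial genes (Tmem119, P2ry12, P2ry13 and Trem2) and the cell type markers named outside that rule; the 8 most similar genes have the highest Pearson correlation of residuals with the mean of the 8 genes. The alternatives tried were other normalizations, filters, offsets, slide terms, weights and samples.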

Additional observations from a re-analysis of the deposited data

Results flagged for a closer look

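Each of the 32 combinations of a gene and a group of 6 arrays was searched for an array that stood far from the rest, and 2 did, where chance marks about 1 in 20. The Tyrobp signal of METH 2 h replicate 5 was 5.41, the next highest in its group was 4.95, and this gap took 0.772 of the group's range. It is the single METH 2 h array on which Tyrobp was detected. The Clec4a3 signal of saline replicate 4 on slide 1 was 4.65, the next lowest was 5.16, and the gap took 0.733 of the range. That array also had the lowest array weight, 0.355.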

How the results depend on the processing

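After Benjamini-Hochberg adjustment, 0 of the 8 genes passed at 2 h (25 alternatives), at 24 h (26), for the difference between times (37) or for the difference between slides (19), and the lowest adjusted p of any gene at either time was 0.125. The count of genes higher at 24 h at an unadjusted p under 0.05, 6 of 8, was 2 from the deposited log2 values, 4 with those centred per array, 2 without METH 24 h replicates 2 and 5, 4 to 7 when single arrays were left out and 5 to 7 otherwise; the same 7 genes were higher in each. The median of the 8 genes at 24 h was 0.54 from the centred deposited values, 0.22 without METH 24 h replicates 2 and 5, and 0.30 to 0.43 with single arrays left out. At 2 h it was 0.37 from the deposited values and 0.34 from the centred ones, where the median of all probes was 0.20 and 0.17, so 0.17 above it in each; leaving out arrays gave 0.011 to 0.16. Tyrobp and Cx3cr1 were mostly undetected at 2 h, so their signs there carry no direction. At 2 h C2 ran from -0.026 (without METH 2 h replicate 2) to 0.32 with single arrays left out, Tyrobp from -0.053 (without METH 2 h replicate 5; -0.00013 without saline replicate 6 of slide 1) to 0.074, Cx3cr1 was -0.0016 with array weights and -0.032 without the 2 arrays of lowest weight, and Aif1 was 0.12 from the deposited values, 0.085 from the centred ones and 0.12 with median scaling, which lies below the median of all probes there by 0.083, 0.083 and 0.038. The cause of these shifts was not tested. Of all probes, 7 were called at 2 h, but 2 from the deposited values, 3 from the centred ones, 3 with median scaling, 1 with separate fits, 3 without a filter, 2 with array weights, 29 without the 2 arrays of lowest weight and 3 to 17 with single arrays left out; at 24 h 5 were called, but 0 from the deposited or centred values, 8 with separate fits, 3 without a filter, 3 with trended robust variances and 4 to 6 with arrays left out. All 4 haemoglobin genes passed under each of these settings (run for them after seeing the data) except the deposited and centred values, where 0 did, and no filter, trended robust variances and the fit without METH 24 h replicates 2 and 5, where 3 did. For the difference 0 were called, with 503 at an unadjusted p under 0.05, but 4 with array weights, 4 without the 2 arrays of lowest weight, 3 without METH 24 h replicates 2 and 5 and 0 to 4 with arrays left out; separate fits give no value for it. No paired analysis was possible because the labels do not name the METH rat to which each saline rat was yoked. The labels give no replicate numbers, and those used here follow the order of the arrays on the slides. Dim signals limit Tyrobp, Cx3cr1 and Clec4a3. They also limit Itgam, although it was detected on all 24 arrays. Its 24 h difference ran from 0.14 with an offset of 50 to 0.42 from the centred deposited values.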
